A study of Mus musculus with 10 samples.

Results

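Inflammasome sensors and their upstream activators are represented by 8 genes, chosen by name: the sensor genes Nlrp3, Naip2 and Naip5, and the activator genes P2rx7, Panx1, Nek7, Txnip and Casp8. All 8 were found among the 17097 genes measured, through 13 probe sets, and where a gene had several, the one brightest on average across the 10 arrays was used. The tissue was epididymal white adipose tissue, the fat pad beside the testis, and all animals were males with a C57/Bl6 background. The groups were 3 ASC-/- mice (null for Pycard, the gene of the adaptor ASC), 3 Casp1-/- mice (null for caspase-1) and 4 wild-type (WT) mice. All mice, WT included, were 8 to 12 weeks old when they were put on a diet with 45 energy% of fat, which they ate for 16 weeks. The labels describe both null alleles without a cell type or promoter, and they do not say whether the WT mice were littermates. Each mouse gave 1 Affymetrix HT_MG-430 PM array, so a replicate is a mouse.

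An inflammasome is assembled when a sensor protein detects a microbial product or a disturbance inside the cell, recruits ASC and thereby activates caspase-1, which processes interleukin-1beta and interleukin-18. NLRP3 responds to many danger signals, among them the loss of potassium that follows opening of the ATP-gated channel P2X7. The mouse NAIP proteins bind bacterial flagellin or proteins of bacterial type III secretion systems and act with NLRC4. In obese fat these genes are studied mainly in macrophages, which gather around dying adipocytes. The questions here were how abundant the transcripts of sensors and activators were in obese fat, and whether they differed when the adaptor or the protease downstream of them was missing.

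All levels below are deposited log2 signals made with RMA, and differences are differences of log2 signals, so 1 unit is a doubling of signal. Levels of different genes come from different probes and cannot be ranked against each other. A set of 23 control probe sets without a target in the mouse reached 5.01 at most, and a level below that value cannot be told from background. The targeted genes matched the labels. Pycard lay at 3.40 ± 0.27 in ASC-/- fat (SD, n = 3) against 9.82 ± 0.62 in WT fat (SD, n = 4), and Casp1 at 4.85 ± 0.14 in Casp1-/- fat (SD, n = 3) against 9.32 ± 0.55 in WT fat (SD, n = 4). Adipocyte markers averaged 10.69 to 11.71 per array. Arrays differed in the spike-in controls, polyadenylated bacterial transcripts put into each RNA sample, which are read by 24 probe sets. Their mean was high on the Casp1-/- arrays (7.51 to 8.07) and WT replicate 1 (7.80), while the ASC-/- arrays (6.21 to 6.30) and WT replicates 2 to 4 (5.76 to 6.50) were low. A measure of RNA shortening, actin signal at the 3' end minus that at the 5' end, was 0.54 to 0.67 in ASC-/-, 0.82 to 0.98 in Casp1-/- and 0.46 to 1.05 in WT.

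In ASC-/- fat 0 of the 8 genes passed the test against WT (limma, adjusted p under 0.05), where 0.0351% of all genes did. In Casp1-/- fat 2 of the 8 passed, where 8.17% of all genes did: Naip2 was 3.41-fold and P2rx7 2.20-fold lower than in WT. Naip5, Txnip and Nek7 separated from WT without passing the test. Nlrp3 lay in the range of the background controls in every mouse. The plot of levels by genotype shows all 80 values.

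**Figure D1:**
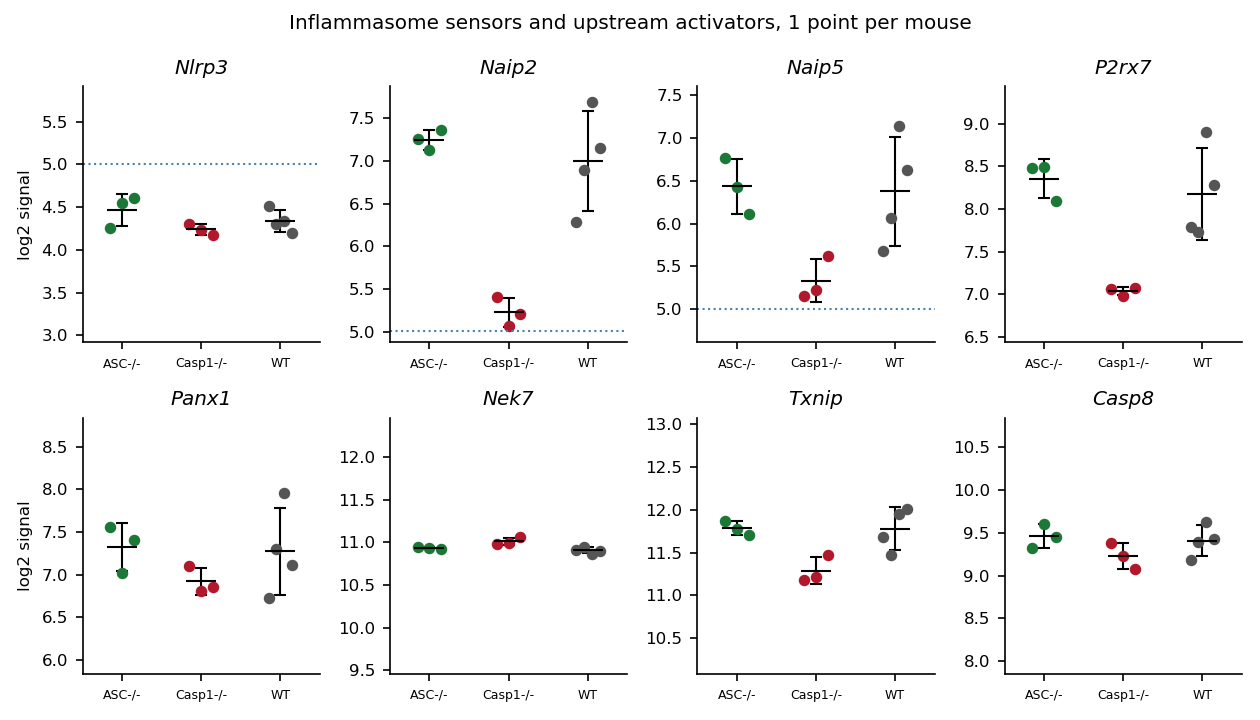
Log2 signal of each gene (vertical axes, each spanning at least 3 units) in ASC-/-, Casp1-/- and WT mice. Points are mice, bars are mean ± SD (n = 3, 3 and 4), and the dotted line marks the highest background control (5.01). Naip2 and P2rx7 of Casp1-/- mice lie below every other mouse, at 5.07 to 5.41 and 6.98 to 7.07, and Nlrp3 lies under the dotted line throughout.

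Among the sensors, Naip2 differed most. NAIP2 is the receptor for the inner rod protein of bacterial type III secretion systems. Its level was 7.25, 7.13 and 7.36 in ASC-/- replicates 1 to 3, 5.41, 5.07 and 5.21 in Casp1-/- replicates 1 to 3, and 6.28, 6.89, 7.69 and 7.15 in WT replicates 1 to 4. The Casp1-/- mice thus lay below all other mice, while the ASC-/- mice lay inside the range of the WT mice. The difference between Casp1-/- (5.23 ± 0.17, SD, n = 3) and WT (7.002 ± 0.59, SD, n = 4) was -1.77 ± 0.27 (SE; limma, adjusted p = 0.0112). Against Casp1-/-, Naip2 was higher in ASC-/- fat by 2.02 ± 0.29 (SE; limma, adjusted p = 0.0106). Between ASC-/- (7.25 ± 0.12) and WT the difference was 0.24 ± 0.27 (SE), with a 95% interval of -0.36 to 0.85. The Casp1-/- levels were just above the highest background control, where differences are compressed.

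Naip5 is the flagellin receptor that limits growth of Legionella in mouse macrophages, and it lies next to Naip2 on chromosome 13. Naip5 had 6.76, 6.43 and 6.11 in ASC-/- replicates 1 to 3, 5.16, 5.22 and 5.63 in Casp1-/- replicates 1 to 3, and 5.68, 6.06, 7.14 and 6.63 in WT replicates 1 to 4. All Casp1-/- mice lay below all WT mice, with 5.63 and 5.68 for the nearest pair. The difference of -1.04 ± 0.32 (SE) between Casp1-/- and WT did not pass (limma, adjusted p = 0.0723), nor did the difference of 1.10 ± 0.34 (SE) between ASC-/- and Casp1-/- (limma, adjusted p = 0.0797). Without WT replicate 1 the Casp1-/- difference from WT was -1.28 and passed (limma, adjusted p = 0.0186). The difference between ASC-/- and Casp1-/- passed in 4 of 22 other settings. Among them were the fits without WT replicate 1 (limma, adjusted p = 0.0366) or WT replicate 3 (limma, adjusted p = 0.0231). The smallest adjusted p was 0.0123 (limma), in a setting other than leaving out 1 array. Naip2 and Naip5 encode close relatives, each read by 1 probe set, so signal shared between them cannot be told apart here.

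The bases upstream of the annotated starts of the 3 genes with the largest Casp1-/- differences are shown, among them the neighbouring genes Naip2 and Naip5. The sequences are from RefSeq (GRCm38.p6), 250 bases up to the start and read 5′ to 3′ on the strand of the gene. They cover chr13:100202123-100202372 (minus strand) for Naip2, chr13:100247337-100247586 (minus strand) for Naip5 and chr5:122643677-122643926 (plus strand, the more upstream of 2 starts) for P2rx7. Capitals mark the longest run that Naip2 and Naip5 share.
Naip2: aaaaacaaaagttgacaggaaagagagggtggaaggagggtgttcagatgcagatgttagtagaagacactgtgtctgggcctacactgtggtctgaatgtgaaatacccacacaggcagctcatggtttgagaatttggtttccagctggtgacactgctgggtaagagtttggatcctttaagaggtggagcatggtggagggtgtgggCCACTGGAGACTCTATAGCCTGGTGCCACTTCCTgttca
Naip5: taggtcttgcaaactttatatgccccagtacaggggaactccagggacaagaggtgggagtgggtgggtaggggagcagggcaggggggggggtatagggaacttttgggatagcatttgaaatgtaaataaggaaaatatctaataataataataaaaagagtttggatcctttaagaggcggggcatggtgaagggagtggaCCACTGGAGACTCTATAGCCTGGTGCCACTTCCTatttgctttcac
P2rx7: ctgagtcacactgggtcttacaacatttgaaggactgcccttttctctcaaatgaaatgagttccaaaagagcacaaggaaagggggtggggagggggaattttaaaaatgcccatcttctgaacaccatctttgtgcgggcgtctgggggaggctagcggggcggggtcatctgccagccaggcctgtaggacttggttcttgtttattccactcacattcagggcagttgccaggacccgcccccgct
The shared run has 34 bases, from 39 to 6 bases before the Naip2 start and from 46 to 13 bases before the Naip5 start. Over the 100 bases that end with it, set side by side without gaps, 76 are identical. In the 42 other pairs of windows of different member genes the longest shared run had 6 to 11 bases. The shared run ends in ACTTCCT, which is AGGAAGT on the other strand, a core common to the ETS family of factors. This motif was added after the run had been seen. It occurs on either strand in 7.69% of all 32851 windows in the table, and among the member genes only in those of Naip2 and Naip5. For PU.1, an ETS factor of macrophages, the core was taken as GAGGAAG, which overlaps with AGGAAGT in 6 bases. This PU.1 core was found in 10.6% of windows and in neither that of Naip2 nor that of Naip5. Among the members it was only in 1 of the 2 windows of Nlrp3, at 130 and 36 bases before the start. Binding of any factor was not tested. The E-box CACGTG (6.02% of windows) and the NF-kappaB motif GGGA, any 2 bases and TTCC (1.21%) were in no member's window. The windows of P2rx7, Panx1, Nek7, Txnip and Casp8 held none of the 4 motifs.

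Nlrp3 encodes the sensor that ASC and caspase-1 serve in sterile inflammation. Its single probe set gave 4.25, 4.54 and 4.61 in ASC-/- replicates 1 to 3, 4.31, 4.24 and 4.18 in Casp1-/- replicates 1 to 3, and 4.52, 4.30, 4.34 and 4.20 in WT replicates 1 to 4. The 3 groups overlapped, and every value was below the highest background control. No fold is given, since a change of Nlrp3 was not detectable at this signal.

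Among the activators, P2rx7 differed most. P2X7 is the channel through which ATP outside the cell triggers potassium loss. P2rx7 had 8.48, 8.49 and 8.09 in ASC-/- replicates 1 to 3, 7.06, 6.98 and 7.07 in Casp1-/- replicates 1 to 3, and 7.79, 7.73, 8.90 and 8.28 in WT replicates 1 to 4. The Casp1-/- mice lay close together and below all others, and the ASC-/- mice lay within the WT range. Casp1-/- fat differed from WT by -1.14 ± 0.25 (SE; limma, adjusted p = 0.0307), and ASC-/- fat from Casp1-/- by 1.32 ± 0.27 (SE; limma, adjusted p = 0.0254). The ASC-/- difference from WT was 0.18 ± 0.25 (SE), with a 95% interval of -0.39 to 0.75.

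P2rx7 has a pair of further probe sets. The second brightest gave 6.51 to 6.81 in ASC-/-, 5.08 to 5.42 in Casp1-/- and 5.86 to 7.49 in WT, again with the Casp1-/- mice below all others. Tested over all probe sets, its Casp1-/- difference from WT was -1.36 ± 0.33 (SE; limma, adjusted p = 0.0474) and its ASC-/- difference from Casp1-/- was 1.42 ± 0.35 (SE; limma, adjusted p = 0.0521). The dimmest stayed at 3.49 to 4.21, in the range of the background controls.

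Txnip encodes a thioredoxin-binding protein of the arrestin fold that rises with glucose and has been described as an NLRP3 ligand. Txnip gave a bright signal, with 11.87, 11.78 and 11.71 in ASC-/- replicates 1 to 3, 11.18, 11.21 and 11.47 in Casp1-/- replicates 1 to 3, and 11.68, 11.48, 11.96 and 12.02 in WT replicates 1 to 4. The highest Casp1-/- mouse nearly touched the lowest WT mouse, with 11.47 against 11.48. The Casp1-/- difference from WT was -0.49 ± 0.14 (SE) and did not pass (limma, adjusted p = 0.0581). Without WT replicate 1 it was -0.53 (limma, adjusted p = 0.0456) and without WT replicate 2 it was -0.59 (limma, adjusted p = 0.0308), past the threshold in both cases. The difference of 0.50 ± 0.15 (SE) between ASC-/- and Casp1-/- did not pass (limma, adjusted p = 0.0724). It passed in 3 of 22 other settings, among them without WT replicate 2 (limma, adjusted p = 0.0497). The smallest adjusted p was 0.0203 (limma), in a setting other than leaving out 1 array. ASC-/- and WT had almost the same mean, with a difference of 0.0044 ± 0.14 (SE). The second probe set of Txnip had a larger Casp1-/- difference from WT, -0.86 ± 0.32 (SE), that did not pass either (limma, adjusted p = 0.144).

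Nek7, a mitotic kinase that binds NLRP3 and licenses its assembly, was the steadiest member. It had 10.94, 10.93 and 10.92 in ASC-/- replicates 1 to 3, 10.98, 11.00 and 11.06 in Casp1-/- replicates 1 to 3, and 10.92, 10.95, 10.86 and 10.89 in WT replicates 1 to 4. The Casp1-/- mice lay above all others, by a difference from WT of only 0.11 ± 0.061 (SE; limma, adjusted p = 0.299). Over the 10 arrays its SD was 0.055, and 0.977% of genes had a smaller one. Its other probe sets differed between Casp1-/- and WT by 0.081 ± 0.087 and 0.21 ± 0.12 (SE), neither past the threshold.

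Panx1 encodes a channel that releases ATP, and Casp8 the initiator protease of death receptor signalling, which can also cleave pro-interleukin-1beta. Panx1 had 7.56, 7.02 and 7.41 in ASC-/- replicates 1 to 3, 7.11, 6.81 and 6.85 in Casp1-/- replicates 1 to 3, and 6.73, 7.30, 7.95 and 7.11 in WT replicates 1 to 4. Casp8 had 9.32, 9.60 and 9.46 in ASC-/- replicates 1 to 3, 9.38, 9.23 and 9.07 in Casp1-/- replicates 1 to 3, and 9.18, 9.39, 9.63 and 9.43 in WT replicates 1 to 4. For both genes the groups overlapped. The Casp1-/- difference from WT was -0.35 ± 0.26 for Panx1 (95% interval -0.92 to 0.22) and -0.18 ± 0.12 for Casp8 (95% interval -0.46 to 0.094). Panx1 lies on chromosome 9, as does the targeted Casp1, with 44 protein-coding genes between them, and none of the others lies on a chromosome with a targeted gene.

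**Figure D2:**
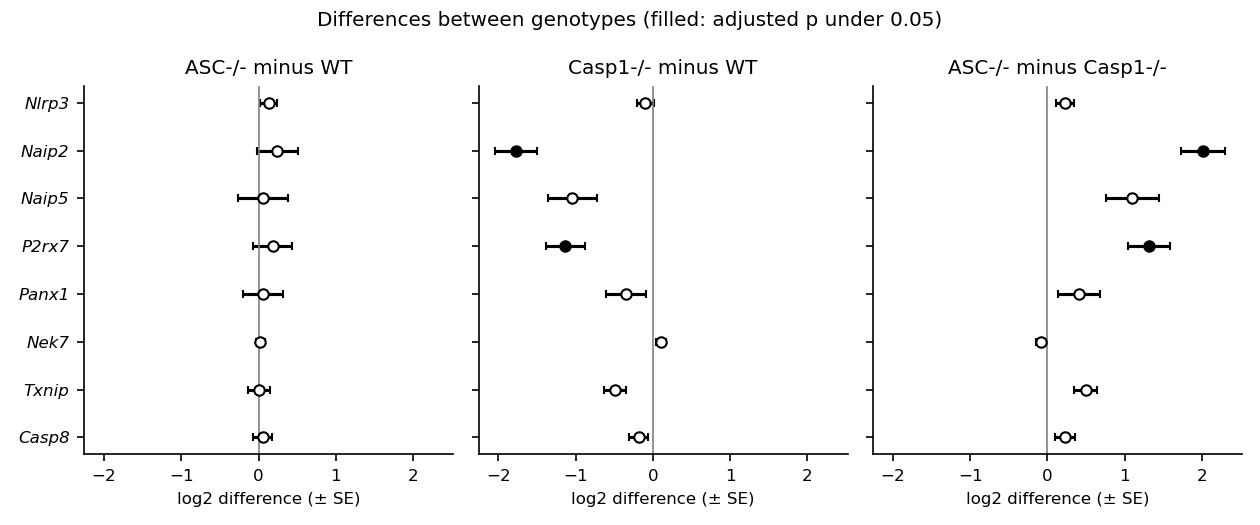
Difference in log2 signal (horizontal axis, ± SE) of each gene for ASC-/- minus WT, Casp1-/- minus WT and ASC-/- minus Casp1-/-. Filled points passed an adjusted p of 0.05, which among the 8 only Naip2 (-1.77 and 2.02) and P2rx7 (-1.14 and 1.32) did, in the 2 comparisons that involve Casp1-/- fat.

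At an unadjusted p under 0.05 the comparison of ASC-/- with WT called 0 of the 8 genes, where it called 2% of all genes (limma), and 0 of the 8 had groups without overlap, where 3.19% of all genes did. Casp1-/- and WT mice did not overlap for 5 of the 8, where this held for 24.7% of all genes. Of these, 4 lay below WT, as did 9.6% of all genes, and 1 lay above, as did 15.1%. Between ASC-/- and Casp1-/- 2 genes passed, where 7.39% of all genes did, and 5 did not overlap, where 40.4% of all genes did not. ASC-/- lay above Casp1-/- for 4 of these, as for 17.3% of all genes, and below for 1, as for 23.1%. The count of separated genes thus stood beside a high background, most of all between the null genotypes. The median difference of the 8 was 0.056 in ASC-/- against WT, -0.42 in Casp1-/- against WT and 0.45 in ASC-/- against Casp1-/-, beside 0.0050, 0.041 and -0.042 over all genes. The first pair of comparisons share the WT arrays and the last pair the Casp1-/- arrays.

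By mean level the order was ASC-/-, WT, Casp1-/- from high to low for 7 of the 8 genes, Nlrp3 included although all its values lay at background, and Casp1-/-, ASC-/-, WT for Nek7. Of all genes 20.1% had the first of these orders. Its step between ASC-/- and WT was small, from 0.0044 for Txnip to 0.24 for Naip2, and its sign turned in 10 of 22 other settings for Txnip, in 7 for Naip5, in 5 each for Panx1 and Casp8, in 2 for P2rx7 and in 1 for Naip2. The neighbours ASC-/- and WT in that order passed the test for none of the 8 genes. Casp1-/- and WT passed it only for Naip2 and P2rx7 among them.

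Most macrophage markers were lower in Casp1-/- fat too. The marker lists were chosen with earlier results of these data known, so their counts are not an independent test. The mean of 15 pan-macrophage markers was 10.32 to 10.75 in ASC-/-, 9.08 to 9.37 in Casp1-/- and 9.78 to 11.08 in WT. Their summed signal on the linear scale was 38034 to 48731, 15640 to 19454 and 26628 to 56171 in these groups. Of the 15, 9 fell in Casp1-/- fat against WT, where 3.86% of all genes fell, and 0 fell in ASC-/- fat (limma). None of them lay at background on every array. The marker Emilin2 lay above WT in all Casp1-/- mice, by 0.62, and did not pass (limma, adjusted p = 0.0537). Of 9 markers of lipid-associated macrophages 7 fell in Casp1-/- fat, while Lpl lay above WT in all Casp1-/- mice by 0.090 and did not pass (limma, adjusted p = 0.374). The 9 markers had a summed signal of 43365 to 57431 in ASC-/-, 21509 to 26152 in Casp1-/- and 34004 to 60981 in WT. These sums include Lpl, with a mean log2 signal of 13.64 over the 10 arrays. The median difference of the 9 between Casp1-/- and WT was -1.78. Among the 6 neutrophil markers measured none passed in any comparison, and 4 of the 6, S100a9, Cxcr2, Mmp8 and Ngp, lay at background on all arrays. The B cell, endothelial, adipocyte and epididymis markers passed in no comparison. In Casp1-/- against WT the 6 adipocyte markers differed by -0.17 to 1.14 (limma, adjusted p = 0.0771 to 0.813), 4 up and 2 down. Of these, 3 lay above WT in all Casp1-/- mice, as did 15.1% of all genes, and 0 lay below. Of 5 dendritic cell markers 1 was higher in Casp1-/- than in WT, where 4.31% of all genes were. Of 8 T and NK cell markers 1 was lower in ASC-/- than in Casp1-/-, where 3.54% of all genes were. At background on all arrays were 2 of 4 B cell, 3 of 5 dendritic cell, 5 of 8 T and NK cell and 4 of 6 epididymis markers. All 6 endothelial markers had a higher mean in Casp1-/- than in WT, by 0.35 to 0.71 (limma, adjusted p = 0.0557 to 0.295). In whole tissue, fewer cells of a type and less RNA per cell cannot be told apart. The part of macrophage content in the differences of Naip2 and P2rx7 was not tested.

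**Figure D3:**
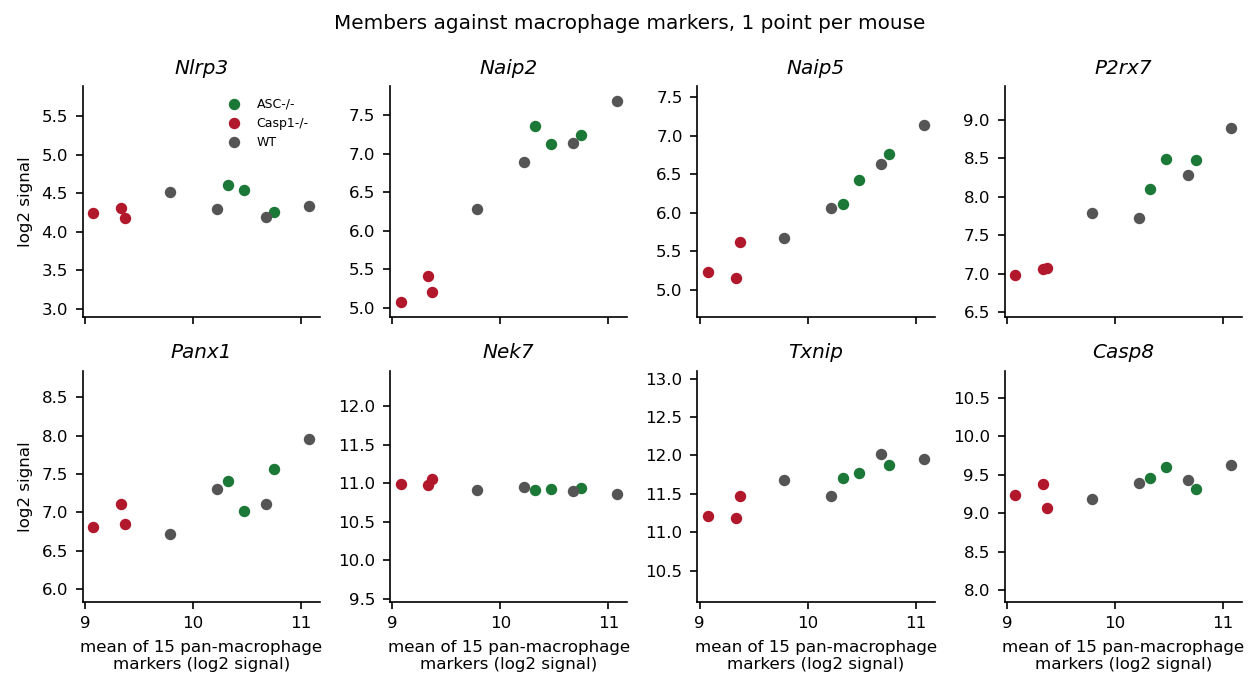
Log2 signal of each gene (vertical axes, each spanning at least 3 units) against the mean log2 signal of 15 pan-macrophage markers (horizontal axis), 1 point per mouse. Naip2, Naip5 and P2rx7 are high in the mice with high marker signal, WT replicate 3 (11.08) at the top and Casp1-/- replicate 2 (9.08) at the left, while Nlrp3 and Nek7 span only 0.43 and 0.19 units over all mice.

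Within the WT group the mice also differed in macrophage markers. By these the WT mice ran from replicate 1 (9.78) over replicate 2 (10.22) and replicate 4 (10.67) to replicate 3 (11.08). Naip2, Naip5 and Casp8 ran in this order too, while P2rx7, Panx1 and Txnip each had 1 or more neighbours exchanged. Nek7 and Nlrp3 did not follow it, with Nek7 lowest and not highest in replicate 3. The share of all genes in this order was not counted. Other measures ran nearly or fully in reverse over WT replicates 1, 2, 4 and 3. The actin measure was 1.05, 0.91, 0.46 and 0.53, and the spike-in mean 7.80, 6.50, 5.76 and 6.19. Summed signal of the epididymis markers was 4462, 1174, 85.9 and 70.7. Which of these measures the genes go with was not tested.

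The genes most like a member were sought by the root mean square difference over the 10 arrays, after each gene was centred on its mean, for the 4 members with an SD of at least 0.3. Nearest to Naip2 (SD 0.98) were Lcp1, an actin-bundling protein of leukocytes (0.15), Nckap1l, a regulator of actin in blood cells (0.18), and Fcgr1, an antibody receptor of macrophages (0.18). Naip5 was nearest to Fkbp1b (0.091), St6galnac4 (0.10) and Prkcd (0.11), and P2rx7 to Cmtm7 (0.098), Arhgef10l (0.11) and Slc66a2 (0.12). Panx1 was nearest to Ncs1 (0.10), Cd40 (0.11) and Slc2a1 (0.14). Fcgr1 is itself 1 of the macrophage markers used above, and no other of these nearest genes is in a marker list. The Casp1-/- difference is part of this measure, with -1.80 against WT for each of the 3 genes nearest to Naip2.

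The arrays also differed in markers of the epididymis, the tissue next to this fat pad. Spink8 and Adam7 were the 2 of these 6 markers above background on some arrays. The summed linear signal of the 6 was 1831 in ASC-/- replicate 1, 4232 in Casp1-/- replicate 2, and 4462 and 1174 in WT replicates 1 and 2, against 70.7 to 98.0 on the other arrays. Among these 4 are WT replicate 1, the only WT array with high spike-in signal, and Casp1-/- replicate 2, without which Naip2 did not pass. The 6 arrays with low epididymis signal were 2 per genotype. On these, 4 of the 8 genes passed in Casp1-/- against WT, where 3470 of all 17097 genes did. The differences were -2.11 for Naip2, -1.49 for Naip5, -1.52 for P2rx7 and -0.66 for Txnip (limma, adjusted p = 0.00354, 0.0116, 0.0102 and 0.0197). The WT mice kept there are replicates 3 and 4, the pair with the most macrophage marker signal. Naip2 (1.93) and P2rx7 (1.23) passed between ASC-/- and Casp1-/- on these arrays (limma, adjusted p = 0.0127 and 0.0469), where 674 of all genes did. Between ASC-/- and WT 0 of the 8 passed there, where 3 of all genes did, and 6 of the 8 means were lower in ASC-/-. How many of all genes had a lower mean there was not counted. This selection was added after the data had been seen, and the part of epididymis RNA in the results was not tested further.

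The spike-in signal divided the mice almost as the genotype did. With that division as a block, the Casp1-/- difference from WT rests on WT replicate 1 alone and was -1.05 for Naip2 (limma, adjusted p = 0.148), -0.75 for P2rx7 (limma, adjusted p = 0.468), -0.34 for Naip5 and -0.39 for Txnip. None of the 8 genes passed then. Blocked in the same way, ASC-/- against Casp1-/- gave 1.05 for Naip2 (limma, adjusted p = 0.335) and 0.81 for P2rx7 (limma, adjusted p = 0.695). With the actin signal as a covariate Naip2 (-1.57) and P2rx7 (-0.93) still passed in Casp1-/- against WT (limma, adjusted p = 0.0101 and 0.0250), and in ASC-/- against Casp1-/- Naip2 did and P2rx7 did not (0.90; limma, adjusted p = 0.0896). Without Casp1-/- replicate 2 Naip2 no longer passed, at -1.69 in Casp1-/- against WT (limma, adjusted p = 0.0611) and 1.94 in ASC-/- against Casp1-/- (limma, adjusted p = 0.0505). Without ASC-/- replicate 1 the second of these differences did not pass either (2.01; limma, adjusted p = 0.0527). For P2rx7 against WT the test was lost without any 1 of the Casp1-/- replicates, WT replicate 4 or ASC-/- replicate 2, at adjusted p = 0.0523 to 0.109 (limma) and differences of -1.10 to -1.15. Between ASC-/- and Casp1-/- it was lost without any 1 of the Casp1-/- replicates or ASC-/- replicates 1 or 2, at adjusted p = 0.0713 to 0.103 (limma).

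**Figure D4:**
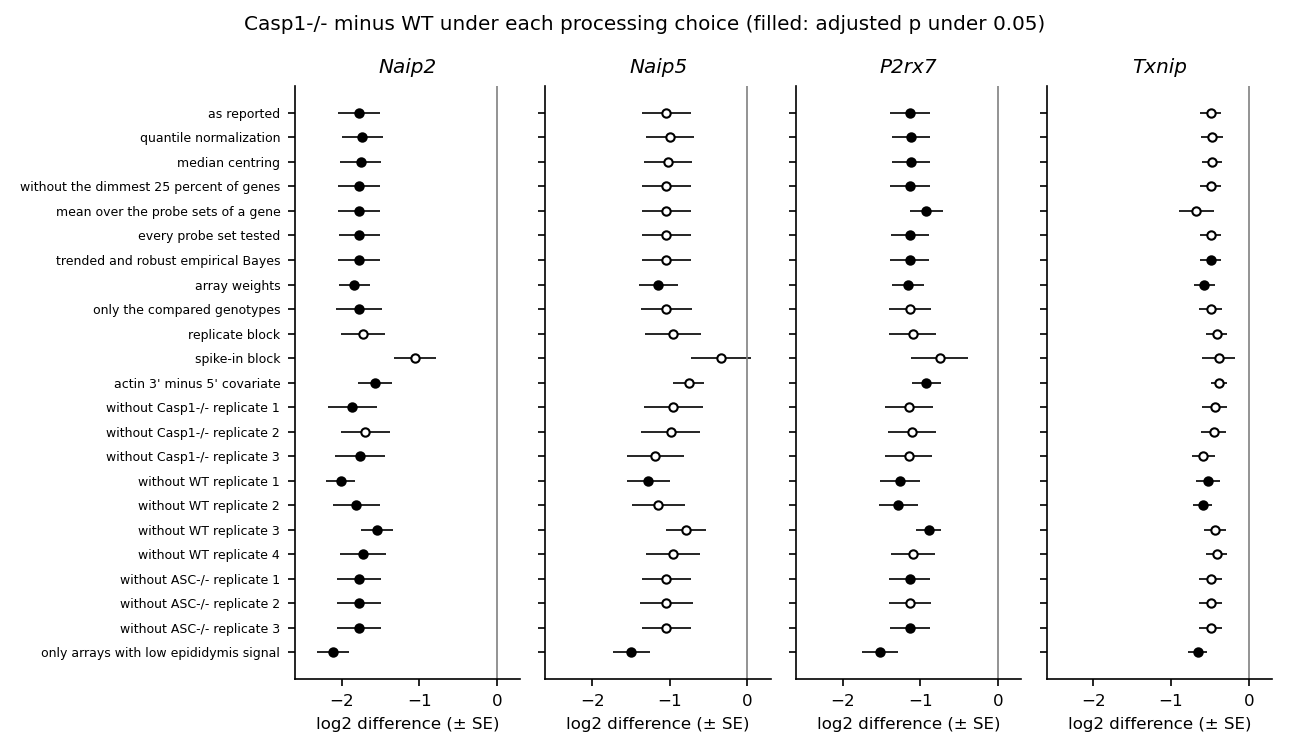
Difference in log2 signal between Casp1-/- and WT fat (horizontal axes, ± SE) of Naip2, Naip5, P2rx7 and Txnip under each processing choice and without each array. Filled points passed an adjusted p of 0.05. All differences are negative, from -2.11 to -1.05 for Naip2, and the smallest for Naip2, Naip5 and P2rx7 are those with the spike-in block.

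**Figure D5:**
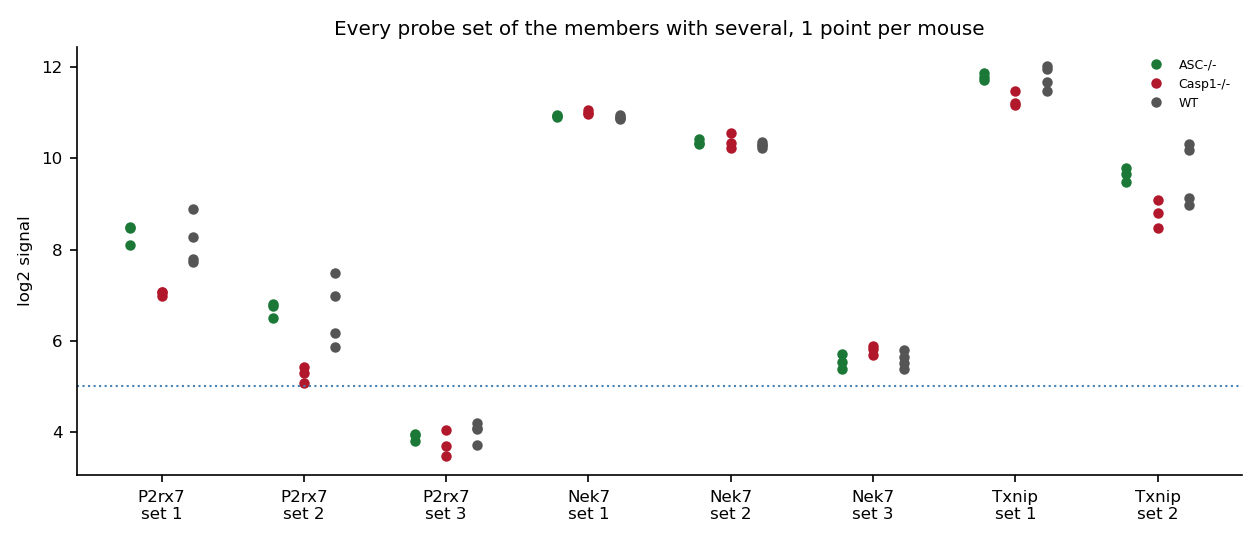
Log2 signal (vertical axis) of every probe set of P2rx7, Nek7 and Txnip, ordered by mean signal within the gene, with 1 point per mouse. The dotted line marks the highest background control (5.01). Casp1-/- mice lie lowest in both brighter sets of P2rx7, and the third set lies under the line.

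Around the members, 88 further genes of the pathway were listed by role, of which 70 matched a measured gene. This list, too, was made with earlier results of these data known. The targeted Pycard was the 1 gene of the 70 that fell in ASC-/- fat against WT, and 0 rose, beside 0.0175% of all genes in each direction. In Casp1-/- fat 12 fell and 2 rose, beside 3.86% and 4.31% of all genes, and these 12 include the targeted Casp1 and its neighbour Casp4. Between ASC-/- and Casp1-/- 12 were higher and 1 lower (3.85% and 3.54% of all genes). The same shares stand beside the counts by role below, several of which are 1 or 2 genes. The median difference of the list was 0.033 in ASC-/- against WT, -0.094 in Casp1-/- against WT and 0.11 in ASC-/- against Casp1-/-.

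Of 7 other sensors measured, only Nlrc3 passed in Casp1-/- against WT, at 3.42 ± 0.11 in Casp1-/- against 4.68 ± 0.63 in WT. All its Casp1-/- values lay at background, as did those of WT replicates 1, 2 and 4, and WT replicate 3 had 5.56. The smallest p among them in ASC-/- against WT was that of Nlrp12 (3.14 against 3.34, both at background; limma, unadjusted p = 0.0548). The adaptor Pycard fell by 1.23 in Casp1-/- fat, to 8.59 ± 0.19 against 9.82 ± 0.62 in WT (limma, adjusted p = 0.038). Casp4, which encodes the caspase that senses bacterial lipopolysaccharide in the cytosol, fell to 6.45 ± 0.18 in Casp1-/- against 8.02 ± 0.30 in WT. Of 10 interleukin products and receptors, Il1rn, the interleukin-1 receptor antagonist, and Il1rap, the shared accessory chain of the receptor, fell in Casp1-/- fat. Il1rn was 5.93 against 8.55 in WT, and Il1rap 4.69, at background, against 5.37.

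Among 16 NLRP3 cofactors and ion channels, 3 fell in Casp1-/- fat against WT, where 3.86% of all genes fell. P2rx4, another ATP-gated channel of the P2X family, was 9.17 ± 0.15 in Casp1-/- and 10.24 ± 0.51 in WT (-1.07; limma, adjusted p = 0.035). Ctsb, the lysosomal protease cathepsin B, fell by 0.45 (limma, adjusted p = 0.0377), and Trem2, a lipid receptor of macrophages, by 2.75 (limma, adjusted p = 0.0149). Trem2 is also 1 of the lipid-associated macrophage markers above. Compared with Casp1-/-, ASC-/- fat had 6 of the 16 higher, where 3.85% of all genes were. Of these 6, Trem2 (2.91), Ctsb (0.56), P2rx4 (1.13) and Clic4, a chloride channel protein (0.32), had the smallest p.

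Of 9 caspase-8 partners and necroptosis genes, the inhibitor Cflar rose in Casp1-/- fat by 0.44 (8.91 ± 0.059 against 8.46 ± 0.22 in WT; limma, adjusted p = 0.0474), and the kinase Ripk3 fell by 0.92 (5.52 ± 0.076 against 6.44 ± 0.52; limma, adjusted p = 0.0486). Fadd, the adaptor that binds caspase-8, had the smallest p of this set in ASC-/- against WT (0.20 ± 0.088, SE; limma, unadjusted p = 0.0498). Of 11 priming receptors and signalling genes, Tlr2 (6.50 against 7.45) and the lipopolysaccharide receptor Cd14 (8.05 against 9.34) fell in Casp1-/- fat against WT, at adjusted p = 0.0493 and 0.0497 (limma). Of 11 partners and regulators of Txnip, Mlxipl rose. It encodes the glucose-responsive factor ChREBP, known to drive Txnip transcription, and was 8.77, 8.84 and 9.02 in Casp1-/- replicates 1 to 3 against 8.08, 7.88, 7.04 and 7.95 in WT replicates 1 to 4 (difference 1.14 ± 0.27, SE; limma, adjusted p = 0.035). The Casp1-/- difference of Txnip itself did not pass, and its relation to Mlxipl was not tested. Other genes with the smallest p of their set in ASC-/- against WT, none past the threshold, were Il1rap (0.23), the NF-kappaB inhibitor Nfkbia (0.27), Clic4 (0.080) and Mlxip, a relative of Mlxipl (0.19). With the spike-in block 2 of the 70 genes passed in Casp1-/- against WT, Casp1 and Casp4.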

How the data were processed

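The values deposited by the authors are log2 signals per probe set, and per the submitters' processing notes RMA, with no version stated, produced them. RMA makes the distributions of the arrays alike, so a change in total RNA per cell leaves no trace, and it compresses differences near background. The number of arrays limits the precision. The build used for the probe sets was not given in the sources used here. Of 45141 probe sets, 28898 had 1 gene symbol in the platform annotation, 551 had several and 15588 had none, and 104 were controls.

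The model, fitted to 17097 genes with limma 3.58.1 (R 4.3.3), had a mean for each genotype, used the 10 arrays together and kept the default eBayes settings. Tests were two-sided, adjusted by Benjamini-Hochberg over all genes, with a threshold of 0.05. Signals were checked against 23 background controls. On simulated data of 17097 genes the fit recovered 74 of 100 genes changed by 1 log2 unit in ASC-/- against WT. In Casp1-/- against WT it recovered 78 of 100. False calls among the unchanged genes were 7 and 10. Another 100 genes had been changed by 2 units, and the noise was drawn independently for each gene. Genes that vary together were not simulated, so these rates need not hold for the real arrays.

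The members, the pathway and marker lists and the alternatives were chosen with earlier results of these data known. Named were the members, the targeted genes and Casp4, per pathway subgroup up to 4 genes past the threshold (or the 1 with the smallest p), and the 3 genes nearest to a member. Of the 88 pathway genes, 18 matched no measured gene and are not analysed here. Replicate numbers were checked for pairing by correlating, over genes, the deviations of mice with the same number (-0.26 to 0.19). The alternatives were other scalings, filters, probe set rules and empirical Bayes steps, array weights, blocks, a covariate and leaving out each array. The use of only the 6 arrays with low epididymis signal was added after the data had been seen.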

Additional observations from a re-analysis of the deposited data

How the results depend on the processing

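The number of members past the threshold in ASC-/- against WT was 0 under all 22 other settings, and that of pathway genes was 1. In Casp1-/- against WT, where 2 members passed, the count was 4 with array weights, 1 in a fit of only the compared genotypes, 0 with the replicate block and 0 with the spike-in block, 4 on the 6 arrays with low epididymis signal, and 0 to 4 when single arrays were left out. In ASC-/- against Casp1-/-, also 2, it was 4, 4, 0 and 0 in the same settings, 1 with the actin covariate, and 0 to 3 without single arrays. The pathway counts were 14 and 13. In Casp1-/- against WT that count was 6 with means over probe sets, 30 with array weights, 4 with only the compared genotypes, 1 with the replicate block, 2 with the spike-in block, 24 on the arrays with low epididymis signal and 2 to 28 without single arrays. In ASC-/- against Casp1-/- it was 33 with array weights, 31 with only the compared genotypes, 3 with the replicate block, 2 with the spike-in block, 3 with the actin covariate and 3 to 23 without single arrays. The count of all genes past the threshold in Casp1-/- against WT moved too, with 1397 as reported, 9 with the replicate block, 120 with the spike-in block, 469 with only the compared genotypes, 2189 of all probe sets, 2998 with array weights, 3470 on the arrays with low epididymis signal and 64 to 3018 without single arrays. In ASC-/- against Casp1-/- it was 1264 as reported, 19, 63, 3248, 2009 and 3428 in these settings, 231 with the actin covariate, 674 on the arrays with low epididymis signal and 47 to 2615 without single arrays. In ASC-/- against WT it was 6 as reported, 3 on the arrays with low epididymis signal, 3 with the replicate block, 3 with only the compared genotypes and 11 of all probe sets.

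The labels give each mouse a replicate number and do not say whether mice with the same number share a batch. The deviations of mice with the same number correlated at -0.26 to 0.19 over genes. With the replicate number as a block Naip2 was -1.72 (limma, adjusted p = 0.0883) and P2rx7 -1.10 (limma, adjusted p = 0.145) in Casp1-/- against WT.

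Signs that turned were all of differences that did not pass. In ASC-/- against WT, Txnip was -0.0025 with quantile normalization, -0.0038 with median centring, -0.0033 with means over probe sets, -0.082 with array weights, -0.030 with the spike-in block and -0.10 with the actin covariate. Naip5 was -0.088, -0.18 and -0.22 in the last 3 of these settings. With the spike-in block Panx1 was -0.13 and Casp8 -0.025, and with the actin covariate Panx1 was -0.054, Casp8 -0.0067 and P2rx7 -0.024. On the arrays with low epididymis signal the differences between ASC-/- and WT were -0.18 for Naip2, -0.61 for Naip5, -0.30 for P2rx7, -0.32 for Panx1, -0.24 for Txnip and -0.0012 for Casp8. Without single arrays the ranges were -0.18 to 0.31 for Naip5, -0.13 to 0.28 for Panx1, -0.097 to 0.082 for Txnip and -0.025 to 0.12 for Casp8. With the spike-in block Panx1 (0.20) and Casp8 (0.048) turned in Casp1-/- against WT, as did Panx1 (-0.32) and Casp8 (-0.073) in ASC-/- against Casp1-/-. Naip5 and Txnip passed in Casp1-/- against WT with array weights (-1.15 and -0.57), and Txnip with a trended and robust empirical Bayes step (-0.49; limma, adjusted p = 0.0497). Where a change of these kinds has no cause named, the cause was not tested. Signal over background limits Nlrp3 and, in Casp1-/- fat, Naip2 and Naip5.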
